A study of Mus musculus with 8 samples.

Results

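Differential 5-hydroxymethylcytosine (5hmC) regions at the ends of protein-coding genes are described here. A region was counted when it lay on an autosome and its midpoint was within 1 kb of either end of a RefSeq protein-coding gene span. This position rule, which uses no measured value, selected 526 of the 12520 autosomal regions in the authors' 2 deposited lists. Of these, 292 were in the list of higher signal after Ogt deletion (3.41% of its autosomal regions) and 234 in the list of lower signal (5.91%). They lay at the ends of 545 of 20665 autosomal protein-coding genes.

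The study profiled mouse embryonic stem cells with the genotype Ogt fl/fl, in which both arms carry the floxed alleles and were grown on mitotically inactive fibroblast feeders. Ogt iKO cells received 4-hydroxytamoxifen (4-OHT) for 6 days and were sorted as YFP-positive, and control cells received none. The labels describe sorting to remove feeder cells, naming CD90.2 as the positive marker of the stem cells and CD326 for exclusion. CD326 is usually a marker of embryonic stem cells, so this text may have the markers exchanged, and the sorted cells cannot be checked here. Each arm gave 2 libraries by CMS-IP, in which 5hmC is converted to cytosine 5-methylenesulphonate and precipitated with an antibody, and 2 matching input libraries. The driver of the recombinase is not given in the sources used here, and drug exposure and YFP sorting differ between the arms together with the deletion and cannot be told apart from it. The labels number the replicates without saying that they were separate cultures. The lists hold positions only, so fold changes, read depth and values per sample are unknown, and neither the loss of Ogt nor the cell type can be checked from them. "Higher" and "lower" below always mean membership in the authors' list for that direction. The lists' names write OgtiTKO, taken here to mean the cells labelled Ogt iKO.

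TET enzymes make 5hmC by oxidising 5-methylcytosine, mostly at CG dinucleotides (CpGs), and OGT, the enzyme that adds O-GlcNAc to proteins, binds TET proteins. In embryonic stem cells 5hmC is known to be common in gene bodies, at enhancers and on the flanks of CpG-rich promoters, while the CpG-rich core of an active promoter usually carries little methylation. Gene starts and 3′ ends were separated here by the strand that the RefSeq promoter table (GRCm38.p6) gives for 16457 of the 20665 genes. Methylation at these ends is not given by the lists. Each region was given to its nearest gene end, which yielded 185 regions at starts, 221 at 3′ ends and 120 at ends of genes whose strand was not used here. The midpoint also lay inside another protein-coding gene for 29 of the 292 higher and 16 of the 234 lower regions. Below, such regions are named by the nearest end only, unless stated.

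The promoter windows of 9 genes lay wholly inside a higher region and those of 10 genes wholly inside a lower one. Of these sequences, 11 are printed, chosen mostly by region width. Over all the windows, the median number of CpGs was 3 (0 to 11) in higher and 10 (1 to 38) in lower regions. The ranges overlap. The higher windows not printed, of Dmp1, Arhgap25, Abca9 and Olfr544, held 7, 5, 2 and 0 CpGs. The lower ones not printed, of Gm12248, Vwc2l, Sorbs2 and Gm52720, held 8, 6, 10 and 8. Each printed sequence is the RefSeq window of 300 bases (GRCm38.p6), from 250 before to 50 after an annotated start. It is given 5′ to 3′ on the strand of the gene with every CpG in capitals. The first 4 lay in the widest higher regions whose promoter window was covered in full. They come from E030018B13Rik (chr7:63916607-63916906, plus strand), Flacc1 (chr1:58695940-58696239, minus), Tnn (chr1:160153526-160153825, minus) and Stx19 (chr16:62814426-62814725, plus), and hold 3, 2, 7 and 3 CpGs. The fifth, Pnlip (chr19:58670115-58670414, plus), has the most CpGs among the 9 higher ones, 11.
E030018B13Rik: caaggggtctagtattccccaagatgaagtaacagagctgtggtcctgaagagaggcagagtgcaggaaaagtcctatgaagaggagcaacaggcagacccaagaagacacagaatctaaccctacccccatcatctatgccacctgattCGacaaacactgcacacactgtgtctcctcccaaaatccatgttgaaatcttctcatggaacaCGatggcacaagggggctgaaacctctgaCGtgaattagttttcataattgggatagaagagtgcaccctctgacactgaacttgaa
Flacc1: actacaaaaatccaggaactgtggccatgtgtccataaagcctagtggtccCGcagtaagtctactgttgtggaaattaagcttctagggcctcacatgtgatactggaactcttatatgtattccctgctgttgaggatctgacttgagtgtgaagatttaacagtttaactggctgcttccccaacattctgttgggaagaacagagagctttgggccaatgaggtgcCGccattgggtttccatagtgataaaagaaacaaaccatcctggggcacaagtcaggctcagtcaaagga
Tnn: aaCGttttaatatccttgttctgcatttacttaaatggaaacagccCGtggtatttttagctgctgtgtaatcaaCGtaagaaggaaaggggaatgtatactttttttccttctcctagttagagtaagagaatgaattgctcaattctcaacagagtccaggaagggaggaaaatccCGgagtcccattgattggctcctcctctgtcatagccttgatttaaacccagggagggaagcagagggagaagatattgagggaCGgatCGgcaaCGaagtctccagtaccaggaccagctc
Stx19: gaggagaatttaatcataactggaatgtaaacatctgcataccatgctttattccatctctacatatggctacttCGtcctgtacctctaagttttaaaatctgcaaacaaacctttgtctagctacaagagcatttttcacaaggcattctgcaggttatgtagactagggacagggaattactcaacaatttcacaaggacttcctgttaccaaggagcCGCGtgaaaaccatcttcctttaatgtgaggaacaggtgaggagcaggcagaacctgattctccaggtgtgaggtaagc
Pnlip: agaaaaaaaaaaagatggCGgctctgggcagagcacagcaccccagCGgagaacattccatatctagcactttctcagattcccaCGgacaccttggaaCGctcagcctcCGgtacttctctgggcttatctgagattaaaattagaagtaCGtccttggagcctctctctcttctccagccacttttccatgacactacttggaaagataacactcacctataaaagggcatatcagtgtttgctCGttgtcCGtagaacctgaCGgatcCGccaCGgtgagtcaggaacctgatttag
The other 6 lay in lower regions. Ankrd45 (chr1:161142447-161142746, plus strand), Pygl (chr12:70227634-70227933, minus), Zfp660 (chr9:122902998-122903297, plus) and Ddx4 (chr13:112652261-112652560, minus) come from the 6 widest lower regions, and Stk31 (chr6:49395289-49395588, plus) is shown as a further germline gene. They hold 15, 22, 10, 38 and 29 CpGs. Lama2 (chr10:27616893-27617192, minus) has the fewest among the 10 lower ones, 1. The start used by the table lay 250 bases inside the gene span for Ankrd45, 323 bases for Ddx4 and 249 bases for Lama2.
Ankrd45: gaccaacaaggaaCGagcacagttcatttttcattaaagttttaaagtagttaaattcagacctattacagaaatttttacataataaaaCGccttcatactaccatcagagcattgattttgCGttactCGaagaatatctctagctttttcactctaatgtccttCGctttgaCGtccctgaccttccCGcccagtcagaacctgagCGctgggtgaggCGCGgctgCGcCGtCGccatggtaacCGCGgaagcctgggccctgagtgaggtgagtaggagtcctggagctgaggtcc
Pygl: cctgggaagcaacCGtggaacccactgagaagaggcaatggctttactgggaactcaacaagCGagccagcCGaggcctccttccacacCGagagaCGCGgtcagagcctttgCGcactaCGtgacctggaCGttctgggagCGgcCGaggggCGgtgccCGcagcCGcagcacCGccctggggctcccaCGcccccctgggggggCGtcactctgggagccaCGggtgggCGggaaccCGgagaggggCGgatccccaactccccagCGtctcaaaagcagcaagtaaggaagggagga
Zfp660: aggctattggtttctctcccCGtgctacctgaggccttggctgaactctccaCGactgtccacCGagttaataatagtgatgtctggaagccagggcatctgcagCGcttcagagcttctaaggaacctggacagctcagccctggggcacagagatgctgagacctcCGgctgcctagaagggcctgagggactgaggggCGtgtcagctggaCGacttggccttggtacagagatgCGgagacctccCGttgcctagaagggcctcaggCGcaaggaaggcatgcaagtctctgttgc
Ddx4: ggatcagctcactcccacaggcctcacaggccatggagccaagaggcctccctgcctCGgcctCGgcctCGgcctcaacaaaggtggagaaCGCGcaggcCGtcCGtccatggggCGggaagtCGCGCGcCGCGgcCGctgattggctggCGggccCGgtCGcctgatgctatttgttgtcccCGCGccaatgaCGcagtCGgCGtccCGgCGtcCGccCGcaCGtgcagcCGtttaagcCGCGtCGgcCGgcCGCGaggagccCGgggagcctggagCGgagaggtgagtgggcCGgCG
Stk31: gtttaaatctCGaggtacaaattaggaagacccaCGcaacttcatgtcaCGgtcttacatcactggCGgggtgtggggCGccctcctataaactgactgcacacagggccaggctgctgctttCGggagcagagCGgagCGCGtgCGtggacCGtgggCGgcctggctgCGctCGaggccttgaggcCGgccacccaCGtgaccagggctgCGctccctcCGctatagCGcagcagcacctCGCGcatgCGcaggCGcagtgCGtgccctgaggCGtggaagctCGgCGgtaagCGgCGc
Lama2: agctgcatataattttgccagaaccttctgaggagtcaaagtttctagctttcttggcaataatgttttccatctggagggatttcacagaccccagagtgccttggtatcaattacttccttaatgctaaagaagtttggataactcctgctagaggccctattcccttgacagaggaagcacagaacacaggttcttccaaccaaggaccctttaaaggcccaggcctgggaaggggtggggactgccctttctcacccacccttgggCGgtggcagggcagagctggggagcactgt

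Starts and 3′ ends differed in direction. At starts, 110 of 185 regions were lower (59.5%, 95% Wilson interval 52.3 to 66.3%, counting error only), whereas at 3′ ends 69 of 221 were lower (31.2%, 25.5 to 37.6%). The difference was 28.2 percentage points (95% Newcombe interval 18.6 to 37.1), and the odds of the lower list were 3.23 times as high at starts (odds ratio, two-sided Fisher's exact test across regions, p = 1.53e-08). This test compares positions within the deposited lists and not samples, since regions are not biological replicates. The share at 3′ ends was near the 31.6% of all autosomal regions (3961 of 12520). Regions at ends without a used strand, a mixture of both kinds, lay between at 45.8% (55 of 120, 37.2 to 54.7%). Regions inside genes and over 1 kb from any end were lower in 29.1% (1871 of 6432), and those outside genes and as far from any end in 33.4% (1856 of 5562).

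**Figure D1:**
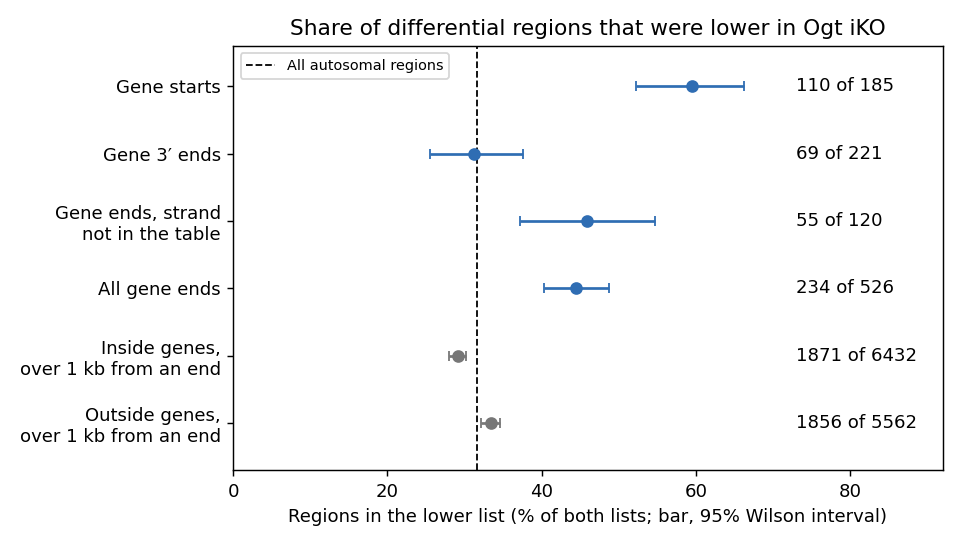
Percentage of regions in the lower list for each class of position (points; bars, 95% Wilson interval), with the counts at the right and all autosomal regions as a dashed line. Starts sit at 59.5% and 3′ ends at 31.2%, on the line for all autosomal regions at 31.6%.

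In steps of 1 kb, the share of lower regions was highest in the steps on either side of the start. Among regions assigned to their nearest start, 60.2% of the 128 with a midpoint in the last 1 kb before it were lower, and 57.6% of the 66 in the first 1 kb after it. From 1 to 2 kb the share was 45.9% before the start (133 regions) and 53.4% after it (118 regions), and from 2 to 3 kb it was 40.2% and 46.9%. Between 5 and 6 kb the shares were 32.9% before and 25.8% after, on either side of the 31.6% of all autosomal regions, and single steps farther out reached 43.0% before and 43.1% after the start. These steps were not tested against each other. Around 3′ ends, 30.2% of 126 regions in the last 1 kb before the end and 35.9% of 103 in the first 1 kb after it were lower. Over the 1 kb steps out to 10 kb around 3′ ends the share ranged from 23.5% to 46.0%.

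**Figure D2:**
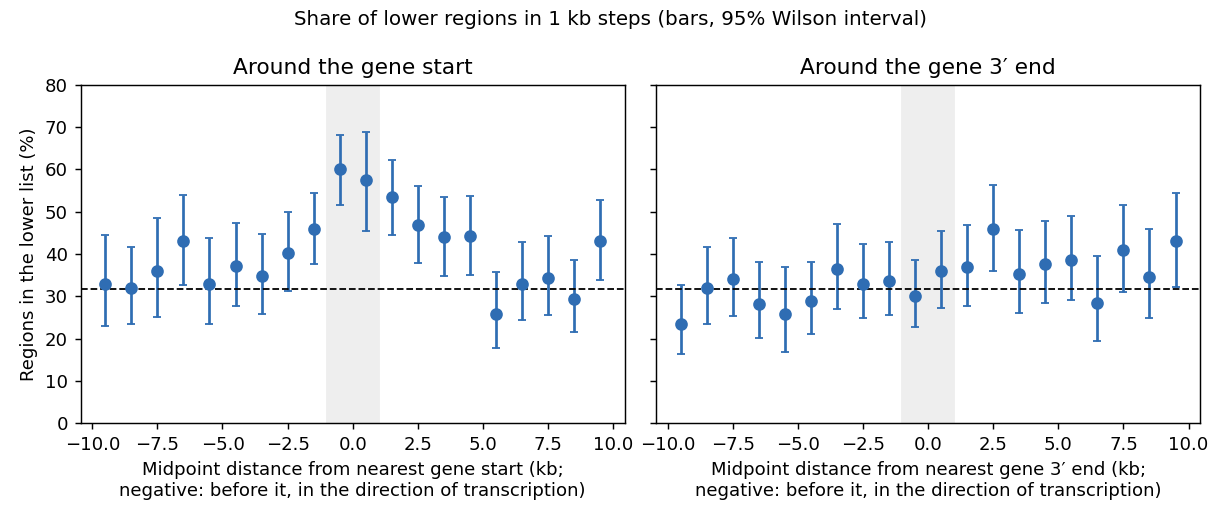
Percentage of regions in the lower list in 1 kb steps of midpoint distance from the nearest gene start (left) and 3′ end (right), negative before the end in the direction of transcription; bars are 95% Wilson intervals, the dashed line marks all autosomal regions and grey marks the 1 kb window. Near starts the share reaches 60.2%, while around 3′ ends it stays between 23.5% and 46.0%.

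Within the 1 kb window, regions at starts lay mostly before the start. This held for 73 of 110 lower regions (66.4%, Wilson interval 57.1 to 74.5%) and for 50 of 75 higher regions (66.7%, 55.4 to 76.3%). Within 500 bp of the start, 45 of 88 regions were lower (51.1%, 40.9 to 61.3%), and farther out in the window 65 of 97 were (67.0%, 57.2 to 75.6%). The bin from 750 to 500 bp before the start held the most lower regions, 27 against 11 higher ones, and the 250 bp just before the start held 11 of each. From 500 to 750 bp after the start there were 9 lower regions and 1 higher region. The median distance from midpoint to start was 577 bp for lower and 422 bp for higher regions. The start itself was covered by 25 of 110 lower regions (22.7%) and by 23 of 75 higher ones (30.7%). At 3′ ends, 65 of 152 higher regions (42.8%) and 17 of 69 lower regions (24.6%) covered the end. The higher regions there were also the wider ones.

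**Figure D3:**
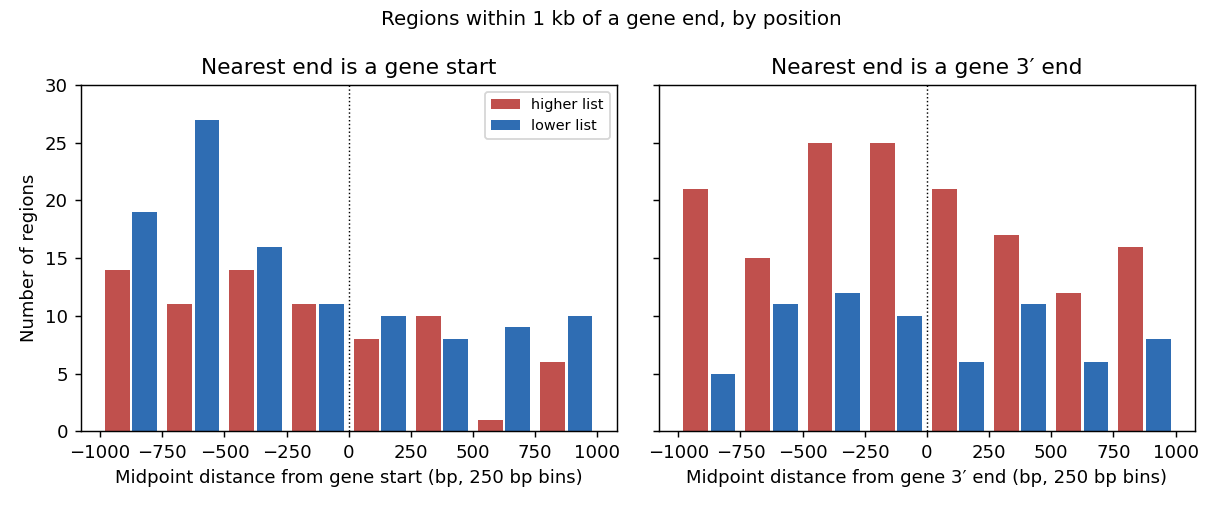
Number of higher (red) and lower (blue) regions by midpoint distance from the nearest gene start (left) and 3′ end (right) in 250 bp bins; negative values lie before the end in the direction of transcription. Lower regions peak at 27 in the bin from 750 to 500 bp before the start, and higher regions exceed lower ones in each of the bins around 3′ ends.

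Higher regions at gene ends had larger median widths than lower ones at both kinds of end. Higher regions at 3′ ends had a median width of 709.5 bp (interquartile range 336 to 1107 bp, n = 152) and higher regions at starts 472 bp (264 to 865 bp, n = 75). Lower regions had medians of 421 bp at 3′ ends (251 to 823 bp, n = 69) and 356 bp at starts (242 to 582 bp, n = 110). Away from gene ends the medians were 541 bp for higher and 318 bp for lower autosomal regions. Of 23 regions at gene ends that spanned 2 kb or more, 20 were higher (87.0%), against 91.6% of the 620 others on the autosomes. The smallest width in the lists, 200 bp, was held by 12.0% of higher and 12.0% of lower regions at gene ends, and by 13.9% and 16.9% elsewhere.

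**Figure D4:**
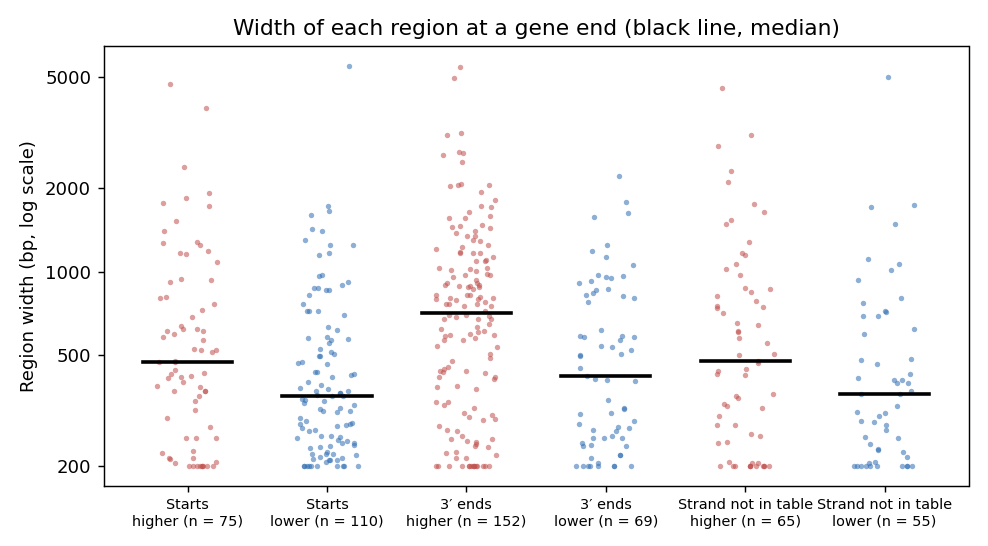
Width in bp (log scale) of each region at a gene end, by kind of end and direction; each point is 1 region and the black line is the median. The median is highest for higher regions at 3′ ends (709.5 bp) and lowest for lower regions at starts (356 bp).

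By gene, 120 of the 16457 genes with a strand (0.729%) had a lower region within 1 kb of the start and 80 (0.486%) a higher one. At 3′ ends the order was the other way round, with 75 genes (0.456%) for lower and 156 genes (0.948%) for higher regions. With all 20665 autosomal protein-coding genes and either end, 247 genes (1.20%) had a lower and 299 (1.45%) a higher region. A gene counts here whenever a region lies within the window, so that a region near 2 genes counts for both, as 23 regions did. On 13 of the 18 autosomes with a stranded gene, lower regions outnumbered higher ones at starts, on 4 the reverse held and on 1 they were equal. At 3′ ends, higher regions were more numerous on 17 chromosomes and equal to the lower ones on 1.

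The promoters of genes with a region at the start had a higher median CpG content for lower than for higher regions. The windows read here belong to the genes. Most of the regions lay beside the window and covered no base of it, so the values do not describe the sequence of the regions. The observed-to-expected CpG ratio of the 300-base window, which compares the CpGs present with those that its C and G content would give by chance, had a median of 0.66 in 120 genes with a lower region (interquartile range 0.41 to 0.88). It was 0.36 in 80 genes with a higher region (0.18 to 0.71), and 0.60 in all 16457 promoters (0.23 to 0.84). The median number of CpGs was 18 for lower, 6 for higher and 14 for all promoters, and the median GC content 60.3%, 52.3% and 56.7%. A ratio of at least 0.6 with a GC content of at least 50% was met by 65 lower promoters (54.2%, Wilson interval 45.3 to 62.8%), 24 of the 80 higher promoters (interval 21.1 to 40.8%) and 47.3% of all promoters. Where the region covered the start itself, fewer promoters met this mark: 8 of 26 for lower (30.8%) and 4 of 23 for higher regions (17.4%). The window nearest the span's 5′ end lay over 100 bp from it in 30 of the 80 higher and 43 of the 120 lower genes, and over 1 kb away in 14 and 16. With the close windows only, an alternative added after the data were seen, the median ratio was 0.26 for 50 higher, 0.55 for 77 lower and 0.57 for all 12679 promoters, so that the lower promoters then lay near all promoters.

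**Figure D5:**
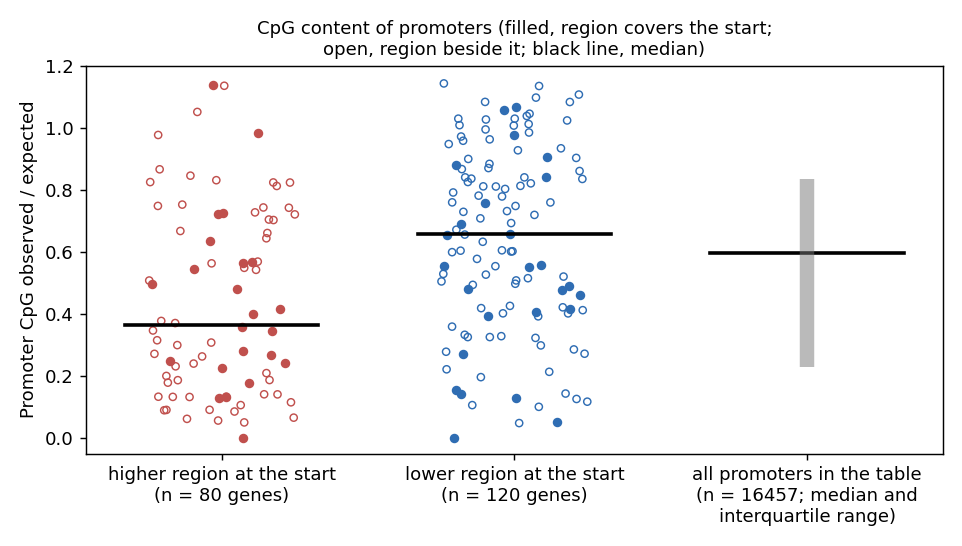
CpG observed-to-expected ratio of the RefSeq promoter of each gene with a higher (red) or lower (blue) region within 1 kb of its start; filled points, region covers the start; black lines, medians; grey bar, interquartile range of all 16457 promoters. Medians are 0.36 for higher, 0.66 for lower and 0.60 for all promoters.

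For genes with a region at the 3′ end, the median promoter ratio was 0.71 for 156 genes with a higher and 0.71 for 75 genes with a lower region at the 3′ end, and 56.4% and 62.7% of them met the CpG mark, against 47.3% of all. Short motifs were searched on both strands of the same windows, as a description of letters only. GGGCGG, a GC box, was found in 60.8% of promoters with a lower region at the start, 45.0% with a higher one and 47.3% of all promoters. The E-box CACGTG occurred in 9.17%, 8 of 80 and 7.97%, and TATAAA in 12.5%, 15.0% and 13.5%. CCGGAA, the core that ETS factors bind, occurred in 14.2%, 15.0% and 19.6%. CATGCGC, which belongs to the NRF1 motif, occurred in 8.33%, 6.25% and 4.93%.

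Of the listed germline genes, 2 had a lower region at the start. Ddx4, the germ-cell RNA helicase known as vasa, had a lower region of 1402 bp that covered its start (chromosome 13, 112651458 to 112652859, mm10), and Stk31, which encodes a Tudor-domain kinase of the testis, had one of 1242 bp (chromosome 6, 49395118 to 49396359). Outside the list, Spdya and the kinetochore gene Ndc80, whose starts diverge 38 bp apart, shared a lower region of 200 bp. The list was chosen with earlier results of these data known, and few of its genes had a region. Of 35 autosomal germline genes in the list, 3 had a lower region at either end (8.57%, against 1.20% of all genes; Ddx4, Stk31 and, at an end without a used strand, Tdrd6 with 215 bp) and 1 a higher one, Hormad1 with 200 bp near its 3′ end.

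The widest lower region at a start lay at Ankrd45, 5495 bp with its midpoint 887 bp inside the gene (chromosome 1, 161140588 to 161146082). It was followed by Robo4, an endothelial guidance receptor (1723 bp, 909 bp inside the gene), and Pygl, the liver glycogen phosphorylase (1650 bp, 98 bp before the start). Zfp660, a zinc finger gene, had 1596 bp, and Slc6a5, the neuronal glycine transporter, 1423 bp. Among further genes with a lower region at or near the start were Sqor, the sulfide quinone oxidoreductase (1251 bp), Mgll, the monoglyceride lipase (897 bp), Phyh, the phytanoyl-CoA hydroxylase (435 bp), and Apoe, the lipid carrier (220 bp, also near the 3′ end of Tomm40). Others were Cbx1, which encodes a heterochromatin protein of the HP1 family (972 bp, covering the start), Smc3 of the cohesin ring (257 bp), and the splicing factor gene U2af1 (200 bp). Foxd3, a transcription factor of embryonic stem cells and neural crest, had a lower region of 697 bp at 977 bp before the start, and Lef1, a transcription factor of the Wnt pathway, one of 236 bp at 934 bp before it. Their promoter windows, of which these regions covered no base, held 25 and 18 CpGs.

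The other lower regions of 1 kb or more at starts lay at Nhsl1, Npr2 and Zbtb11. Those of 500 bp to under 1 kb lay at Tubb1, Otulin, Gm4869, Gm12248, Srsf12, Vwc2l, Sorbs2, Rilpl1, Dcaf4, Gm52720, Sec24b, Mab21l3, Usp45, Gpr1, Lmcd1, Nsmce3, Drc1, Prxl2b, M1ap and Tmem41b. Those under 500 but over 200 bp, the most numerous group with 65 of 110 regions, included Trafd1, Arhgef4, Ecrg4, Gm8773, Gm44501, Ptpn5, Hyal1, Itsn2, Tmem80, Amotl2, Prn, Prkd3, Abl1, Arrdc4, Ly75, Ddx28, Mfsd4b1, Rdh11, Btbd7, Zfp821, Strn3, Tigd3, Cfap126, Alox12b, Hspa12b, 2900026A02Rik, Dcaf15, Fgfbp3 and Vps25. Others of this group lay at Mast4, Map4k3, Oas1f, Pcnx4, Sptb, Ybx3, Micall1, Svopl, Septin12, Ubr3, Il18, Lmbr1l, Cartpt, Csnk2a1, Isoc2a, Cnot6l, Serpina11, Aldh1l1, Sez6l, Spata48, Ppp1r26, Wipi2, Frem2, Dnm1, Nutf2, Rasgef1a, Doxl1, Celf3, Bphl and Kcnc1. Lower regions of 200 bp lay at Coq3, Epgn, Mtss2, Gm7972, Wscd1, Cdhr3 and Trio.

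The genes with a higher region at the start included Alb, Pnlip, Cpa1 and Hao1, named here after their values were seen. Alb, which encodes serum albumin, had a higher region of 226 bp, Pnlip, the pancreatic lipase, 802 bp across its start, Cpa1, the pancreatic carboxypeptidase, 383 bp, and Hao1, the liver glycolate oxidase, 200 bp. Their promoter windows held 3, 11, 2 and 5 CpGs, and the regions covered 22, 300, 0 and 169 of the 300 bases. All 80 genes with a higher region at the start had a median of 6 CpGs (interquartile range 3 to 17.25). Others among the 80 held more, such as Ppard with 27 and Vps33a with 20, in windows that their regions did not reach. Pygl, also named above for the liver, had a lower region at its start, as did Apoe, Serpina11 and Aldh1l1. The genes picked here stand for no tissue as a group, since no share over all liver or pancreas genes was computed. The widest higher region at a start lay at E030018B13Rik (4749 bp, chromosome 7, 63914670 to 63919418), with its midpoint also inside another gene, Klf13. The next widest lay at Flacc1 (3891 bp), Tnn, a tenascin of the extracellular matrix (2375 bp), and Stx19 (1916 bp). Dmp1, a matrix protein of dentin and bone (1833 bp), and Arhgap25, a GTPase-activating protein gene of blood cells (1764 bp), followed. Each of these regions covered the start. Further higher regions at starts lay at Edar, the ectodysplasin receptor (1726 bp), Ackr2, an atypical chemokine receptor (1268 bp), and Npy2r, a neuropeptide Y receptor (443 bp). Wnt6, a Wnt ligand, had a higher region of 214 bp before its start. Prdm12, a sensory neuron regulator, had one of 727 bp across its start. Atpif1 and Dnajc8, whose starts diverge 109 bp apart, shared a higher region of 472 bp.

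The other higher regions of 1 kb or more at starts lay at Padi6, Map3k20, Cfap100, Abca9, Olfr544, Dgki, Dhx40 and Cyp4b1. Those of 500 bp to under 1 kb lay at Fbxo48, Mlip, Larp4, Gm11563, Tmem72, Oxa1l, Pacsin3, Cox5a, Slc7a14, Map3k1, Krtap15, Aspg, Fam219b, Lca5l, Tldc2, Klk6 and Zfp993. Those under 500 but over 200 bp lay at Smg9, 1700123K08Rik, Vps33a, Dnaaf6, Zfp346, Cdk20, Ckmt2, Dcdc5, Orc1, Wfdc15b, Gm46650, Ms4a7, Tpte, Gm45965, Hlcs, Adamts13, Zc3h14, Krtap22-2, Fmo2, Zfp324, Lgsn, Cep72, Tmem52b, Ppard and Abhd12b. Higher regions of 200 bp lay at Iftap, 1700003F12Rik, Vmn2r2, Siglecf, Fam24a, Pabpn1l, Zfp488 and Ccdc184.

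At 3′ ends, the widest higher region lay at Stx16, a Golgi SNARE gene, with 5442 bp across the end (chromosome 2, 174097211 to 174102652). It was followed by Scd3, a stearoyl-CoA desaturase gene (4958 bp; chromosome 19, 44241709 to 44246666), Ndufaf7, an assembly factor of respiratory complex I (3145 bp), and Cd63, a tetraspanin of late endosomes, whose region of 3090 bp also lay near the 3′ end of Rdh5. Supt4a, a transcription elongation factor gene (2700 bp), and Arpin, an inhibitor of the Arp2/3 complex (2667 bp), completed the 6 widest. Further genes with a higher region at the 3′ end included Hells, a remodeller needed for DNA methylation at repeats (1013 bp across the end), and Suz12, a core subunit of Polycomb repressive complex 2 (676 bp, 882 bp beyond the end). Others included Trp53bp1 (1644 bp), Uimc1 (1347 bp), Ercc6 (803 bp), Knl1 (541 bp) and Ncapd3 (218 bp). Higher regions also lay at the 3′ ends of Ghitm (1454 bp), Mrpl18 (1175 bp), Pdhx (969 bp), Mtfmt (864 bp), Mrpl32 (699 bp) and Dlat (478 bp). The same held for Gabarapl1 (2067 bp), Syt1 (1169 bp) and Stx17 (677 bp). Genes outside the 6 widest and the gene lists were named after their values were seen. They stand for no function as a group.

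The other higher regions of 1 kb or more at 3′ ends lay at C9orf72, Ttc29, Btbd6, Smim43, Kif27, Spock1, Bcl2l15, Dmkn, Ahsa2, Slc7a1, U2surp, Oxsr1, Tmem59, Selenok, Pofut1, Ktn1, Trim61, Fam120b, P2ry14, Defb28, Atp8a1, Gm3646, Bnc2, Ndfip2, Iqcf3, Hivep3, Ddt, Pycr1, Commd6, 1700016H13Rik and Eci3. Those of 500 bp to under 1 kb lay at Ankrd12, Kcna6, Fam220a, Asrgl1, Cep170, 4930486L24Rik, Zfp110, Erg, Txndc12, Pigw, Sgo2b, Becn2, Gm5767, Purb, Wdr86, Aftph, Sesn3, Insig2, Tmem184c, Tmem45a, Gimap3 and Plekhd1. They were also found at Dgkg, Eif2ak3, Nedd8, Mrln, Rbm4b, Chtop, Stam2, Slc4a7, Twist2, Cd302, 4933434E20Rik, Alkbh3, Dner, Rdh9, Olfr975, Kcnrg, Gm39270, Efcab8, Pelp1, Gm6551, Homer1 and Dysf. Those under 500 but over 200 bp lay at Arfgef3, Clec12b, Emc3, Plk5, L3hypdh, Itm2b, Shisa3, Rpp30, Gm20172, Esd, Adm, Pank3, Fam126a, 1700017B05Rik, Htd2, Gstm3, Npffr1, Adgrl1, Pigc, Ggnbp2, Cks2, 9230112D13Rik, Ces4a, 1700019A02Rik, Cabs1, Slc5a4a, Mrpl21, Actg1, Rnf187, Smg1, Ndufc2, Ubl5, Tmem107, Pramel15, Tmem274 and Apol10a. Higher regions of 200 bp lay at Raph1, Asb1, Ssb, Tmem33, Fry, Glcci1, C1rb, Olfr482, Brsk2, Rnf135, Ubqln1, Zmym5, Zfp148 and Ppp1r10.

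Klf2, a transcription factor of naive pluripotency, had a lower region of 1782 bp across its 3′ end (chromosome 8, 72321154 to 72322935). Klf2 was the 1 gene of 30 listed pluripotency genes with a region at an end (3.33%, against 1.20% of all genes for lower regions). Fzd7, a Wnt receptor gene, had 924 bp across the end, Hoxa2, a homeobox gene of the hindbrain, a region 911 bp wide inside the gene, Smad6, an inhibitor of BMP signalling, 778 bp, and Socs1, an inhibitor of cytokine signalling, 214 bp. The widest lay at Dpp8, a dipeptidyl peptidase gene (2203 bp). Mrps24, a mitochondrial ribosomal protein gene (1626 bp), Rpl23, a ribosomal protein gene (1245 bp), and Dhcr7, the last enzyme of cholesterol synthesis (1187 bp), were also among the 6 widest, with Ooep, which encodes a protein of the oocyte's maternal complex (1577 bp). Cbx5, an HP1 gene like Cbx1, had a 200 bp lower region near its 3′ end.

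The other lower regions of 1 kb or more at 3′ ends lay at Lactbl1 and Washc4. Those of 500 bp to under 1 kb lay at Smim11, Ntn4, Ushbp1, Fadd, Zfp287, Usp13, Parvb, Ubash3b, Zfp2, Eva1a, Abcb1b, Tent2, Crybb1, Kcnk12, Psmb4, Obsl1, Aak1, Rsu1, Cab39, Cryl1 and Ptpn22. Those under 500 but over 200 bp lay at Gpr6, Klhl9, Rasl10a, Etnk2, Rin3, Krtap4-1, Ctxn1, Fcrl1, Ccdc105, Mogat1, Amph, Kdm3a, Lmnb2, Alpi, Apoa1, Gigyf2, Gm2a, Srek1, Rad18, Lrrc42, Matn4, Rpl14, Cbs, Rps18, Ireb2, Ang, Myo3a and Cpsf6. Lower regions of 200 bp lay at Sec16b, Rgs7, Zfp33b, Mrgprd, Triml2, Oaz1 and Cenpj.

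A single gene, Kif21a, a kinesin motor gene, had regions of both directions at its ends. A lower region of 212 bp covered the start of its span (chromosome 15, 91050265 to 91050476), and a higher region of 1164 bp lay 904 bp beyond its 3′ end (90931790 to 90932953). In 3 further genes 2 regions of the same direction were found. Ooep had the lower region at its 3′ end and another of 200 bp before its start. Rad50, a gene of DNA double-strand break repair, had lower regions of 200 and 230 bp at its ends, and Spp2, a secreted phosphoprotein gene, had higher regions of 583 and 888 bp.

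Among ends without a used strand, the widest lower region lay at Lefty2, which encodes an antagonist of the TGF-beta ligand Nodal, with 5017 bp across the lower-coordinate end (chromosome 1, 180890213 to 180895229). Of 20 listed genes of Nodal and Lefty signalling, which include Nodal and Lefty1, it was the only one with a region at an end. That is 5%, against 1.20% of all genes for lower regions. Zfp568, a KRAB zinc finger gene (1732 bp), Il7, the interleukin 7 gene (1712 bp), and Trf, the transferrin gene (1484 bp), came next. The widest higher region lay at Ift81, a gene of intraflagellar transport (4569 bp; chromosome 5, 122538018 to 122542586), followed by Myrfl (3095 bp) and Gm31309 (2827 bp). Other lower regions of 500 bp or more lay at Fam83a, Krt86, Aga, Nfkbiz, Usp5, Mex3c, Trp53inp1, Itgae, Hsbp1l1, Adprh and E430018J23Rik. Those under 500 but over 200 bp lay at Car8, Kcna1, Gdap1l1, Mfhas1, Sdcbp, Dsg3, Ube2o, Scarb1, Trp63, Dclk3, Ccdc25, Wfdc5, Tomm40l, Lrfn2, Smim40, Pou2f3, Clu, Pias2, Mapk3, Dipk1c, Erich1, Tapt1, Rundc3a, Crebl2, Kif5b and Rrp12, and those of 200 bp at Sbspon, Htr5b, Pkp1, Repin1, Tyrobp, Tgfb1i1, Camk2g and Sema6a. Other higher regions of 500 bp or more lay at Slc12a2, Fabp9, Decr1, Fzd6, Pomk, Apol6, Ctsb, Dhdh, Txnl4a, Nap1l4, Kat6a, Psma8, Dynll2, Adh6b, Gsdmd, 1700024G13Rik, Gm536, Rnd1, Adam12, Wac, Usp39, Nr3c1, BC005537, Zfp369, Ctse, Tnfrsf26, Cdh4 and Acat1. Those under 500 but over 200 bp lay at Seh1l, Map3k19, Olfr149, Pxmp2, Rgs14, Dera, Cyb561, Vcam1, Slc6a2, Cyp7b1, Cspp1, Zkscan14, Gramd3, Defb35, Srfbp1, Asah1, Galnt18, Srp68, Slc26a7, Lzts1 and Cthrc1, and those of 200 bp at Slc43a3, Pcmtd2, Riiad1, Ccne2, Cibar1, Katna1, Nos2, Appl1, Stk3, Rad21 and 9130401M01Rik.

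Gene groups were read against the shares of all genes, 1.45% for higher and 1.20% for lower regions at either end. Of 24 genes of heterochromatin and transposon silencing, 2 had a lower region, Cbx1 and Cbx5, and 1 a higher one, Hells. Of 50 developmental transcription factor genes, 1 had a lower region, Hoxa2. Some lists had no gene with a region at an end. These were the lists of 26 genes of TET, 5mC and 5hmC biology and 13 of the O-GlcNAc and hexosamine pathway. The lists of 49 imprinted genes and 15 genes of the 2-cell stage had none either. This holds for the listed genes only, since the lists need not be complete. Among genes named Zfp, 7 of 391 had a higher region (1.79%) and 6 a lower one (1.53%). Among those named Slc, for solute carriers, 8 of 376 had a higher (2.13%) and 1 a lower region (0.266%), and among those named Olfr, for olfactory receptors, 4 of 1104 had a higher (0.362%) and 0 a lower region. Absence from both lists does not show that a gene kept its 5hmC, because it is unknown which positions the authors could test. With so few genes per list, these counts describe the lists and single out none of them.

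Regions in the bodies of genes with a lower region at the start had nearly the same share of higher regions as the bodies of all genes. Of 110 genes with a lower region as the nearest region at the start, 32 also held regions in the gene body, over 1 kb from both ends, and these comprised 37 higher and 16 lower regions (69.8% higher). Of 75 genes with a higher region at the start, 17 held 18 higher and 4 lower body regions (81.8% higher). In all 16457 genes with a strand, 70.9% were higher. These differences were not tested. Body regions were present in 29.1% of genes with a lower and 22.7% with a higher region at the start, against 19.2% of all genes with a strand. Counted per region at a start, the median gene length was 31.1 kb for lower and 20.9 kb for higher regions. The median of all 20665 autosomal protein-coding genes, with or without a strand, was 17.5 kb. Another region lay within 10 kb of 31 of 152 higher regions at 3′ ends (20.4%), and 27 of these neighbours were higher too. Near 17 of 110 lower regions at starts (15.5%), 11 of the neighbours were higher. Among all autosomal regions 68.4% were higher. The 11 of 17 lay near this share and the 27 of 31 above it. Neither count was tested, and no result is drawn from them. Away from gene ends, 14.3% of higher and 12.7% of lower regions had a neighbour that close.

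The limit of 1 kb divides near-equal positions. The last regions inside it lay at Trabd (lower, 992 bp from the start), Fam221a (higher, 995 bp from the 3′ end) and Npas3 (higher, 1000 bp from the 3′ end). The first outside it lay at Snai2 (lower, 1004 bp), Tub (lower, 1005 bp) and Vgll2 (lower, 1007 bp).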

How the data were processed

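The data analysed are 2 deposited lists of regions on mm10, one per direction of the authors' comparison of 2 Ogt iKO with 2 control CMS-IP libraries (6 days of treatment). The submitters' processing notes name Bismark, MACS2 and mm10; their roles, the test and threshold behind the lists, and how inputs, spike-ins and replicates entered it are not given in the sources used here. The deposited lists give coordinates alone, with no measured value, so depth and replicate error are unknown. The authors' threshold and the coverage, both unknown, set which positions could enter a list and how wide a region became.

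Coordinates were read as BED intervals and are printed 1-based. The midpoint was the integer mean of both coordinates. Gene spans of 20665 autosomal protein-coding genes came from the RefSeq table of GRCm38.p6, and strand and promoter sequences from the RefSeq promoter table, matched by gene ID for 16457 genes (79.6%). A gene start is the 5′ end of its span, and ties in distance went to starts. Promoter features used 1 promoter per gene, the one nearest that end. Directions at starts and 3′ ends were compared with a two-sided Fisher's exact test across regions; everything else is counts, medians and 95% Wilson intervals. Lookups and the test were tested on simulated data. The named regions are the 6 widest per direction and kind of end, genes with 2 regions, divergent pairs and genes of the gene lists. Further genes were named from the member list after their values were seen, and their order was chosen then. No share over all genes of their functions was computed. The names of a few genes with a region are not reported here, and their regions stay in all counts. The region rule and gene lists were chosen with earlier results of these data known. Alternatives were other windows, overlap in place of midpoints, wider regions, clusters, X, other definitions of the start, and promoters close to the span. Python 3.11.15, numpy 2.4.6, pandas 2.3.3 and scipy 1.17.1 were used.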

Additional observations from a re-analysis of the deposited data

How the results depend on the processing

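Of 36 values recomputed for 12 results, 22 gave the same call or lay within the interval of the original value, 14 moved and 0 reversed. The odds ratio of a lower region at starts against 3′ ends, 3.23, ranged from 2.36 (500 bp window, Fisher's exact test, p = 0.00292) to 3.57 (without genes under 2 kb, p = 2.00e-09), and passed the test in each of 10 alternatives, 2 of which, the starts of the promoter table (2.92) and genes whose table start was within 100 bp of the span (2.85), were added after the data were seen. The share of higher regions at gene ends moved from 55.5% to 60.9% with a 500 bp window and to 65.3% among regions at or above the median autosomal width of 456 bp. At starts alone the share of higher regions was 40.5% in the main setting and 45.1% with the 2 kb window. It was 48.9% with the 500 bp window and 49.4% among the wider regions, so higher and lower regions at starts were near equal there. At 3′ ends it was 75.2% among the wider regions. Gene shares scale with the window by construction. With 500 bp and 2 kb windows, 0.261% and 1.32% of genes had a higher and 0.292% and 1.52% a lower region at the start, and 0.541% and 1.75% a higher and 0.261% and 0.942% a lower region at the 3′ end. The median width of lower regions at starts was 434 bp with the 500 bp window. The median CpG ratio of promoters with a lower region fell to 0.52 where the region covered the start, and the cause was not tested. With promoters whose table start was within 100 bp of the span, also added after the data were seen, the median ratio was 0.26 for higher and 0.55 for lower regions. No paired analysis was possible because the lists give positions only; a replicate could not be left out either.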

Other observations

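The X chromosome was outside the rule. Of its 73 regions, 5 lay within 1 kb of an end of a protein-coding gene, 4 lower and 1 higher. The lower ones lay at the starts of Cxcr3, a chemokine receptor gene (200 bp), and Tceanc (546 bp, covering the start), at the 3′ end of S100g, a calcium-binding protein gene (200 bp), and at an end of Septin6 (226 bp). The higher one, of 210 bp, covered the start of Scml1, a gene related to Polycomb proteins, with its midpoint 1 bp from it.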
